A study of Mus musculus with 10 samples.

Results

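The effect of losing Trp53 was compared between mouse colon tissue that had healed after injury and mouse colon organoids. For each gene the log2 ratio of knockout (KO) over wild type (WT) in tissue was set against the same ratio from the same probe in organoids, and the tissue value minus the organoid value is called the difference. The comparison used 6 of the 10 arrays of the series, 4 of tissue and the 2 that set KO directly against WT organoids in full medium. It covered 11310 genes of 25160 named on the array, namely those whose probe stood well above background in all channels of KO or all of WT in both experiments and had a usable spot on all 6 arrays. Before outlier spots were removed 12229 genes qualified; a further 1757 were well above background in tissue alone and 1592 in organoids alone, and the difference says nothing of those.

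The tissue came from male mice, 2 KO and 2 WT, of a cross of Axin2CreERT2 with Trp53 fl/fl. Axin2CreERT2 is a recombinase that tamoxifen switches on in cells with Axin2, a Wnt target gene, so the deletion in tissue starts in those cells and their progeny. The mice were given tamoxifen by intraperitoneal injection and drank 2% dextran sodium sulfate (DSS), a polymer that damages the colon lining, for 5 to 7 days, and whole colon tissue was taken 2 months after DSS. The organoids, epithelial cultures grown in gel from colon crypts, came from VillinCreERT2 with Trp53 fl/fl mice, in which the recombinase is made throughout the gut epithelium. The deletion was induced by 2 days in 4OH-tamoxifen at 800 nM. KO cultures were then selected over passages with Nutlin-3A, a drug that blocks Mdm2 and so halts cells that still have p53. Full medium held 0.328 nM surrogate Wnt, 3 µM of the GSK3 inhibitor CHIR-99021, 25% R-spondin conditioned medium, 100 ng/ml noggin, 50 ng/ml EGF and 0.5 µM of the TGF-beta receptor inhibitor A83-01. Whether the WT mice and WT organoids carried a recombinase or received tamoxifen is not given in the sources used here.

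p53, the protein encoded by Trp53, is a transcription factor that is held down by the ligase Mdm2 and is stabilised by DNA damage and other stress. It then switches on genes that halt the cell cycle (Cdkn1a), cause cell death (Bax, Bbc3) or repair DNA, and also Mdm2 itself, which closes a feedback loop. In the colon, crypt stem cells supported by Wnt signals give rise to absorptive colonocytes and to secretory cells, the mucus-making goblet cells and the hormone-making enteroendocrine cells, and a secretory fate requires the factor Atoh1.

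Every array carried KO and WT RNA in different dyes. In tissue, each of 2 mouse pairs was hybridised in both dye orientations, and the 2 arrays of a pair were averaged into 1 ratio. In organoids, array 1 carried KO replicate 2 in Cy5 and WT replicate 1 in Cy3, and array 2 carried WT replicate 2 in Cy5 and KO replicate 1 in Cy3. The comparison thus rests on 4 units, 2 tissue pairs and 2 organoid arrays, and a gene is called opposed or shared below only if the sign of its ratio allows it in all 4. The labels do not say that the organoid replicates came from separate mice, so p-values measure only how far these samples spread, and part of that may be technical. Tissue arrays were on 1 slide and organoid arrays on another, so tissue against organoid cannot be told apart from slide, scan, recombinase, drug selection, DSS or the mixture of cells. In whole tissue, fewer cells of a type and less RNA per cell cannot be told apart either. The share of spots that stood well above background ran from 42.8% to 55.8% over the channels.

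**Figure D1:**
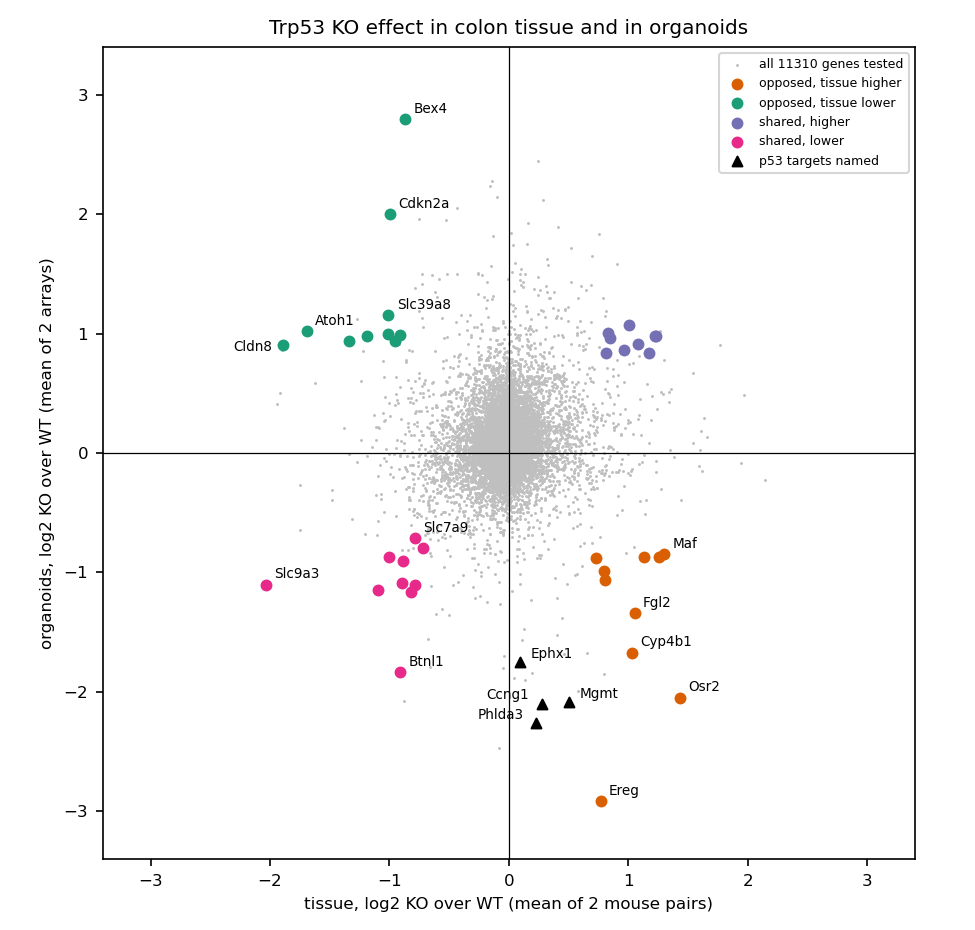
Each point is 1 of 11310 genes, with its log2 KO over WT in tissue (horizontal, mean of 2 mouse pairs) and in organoids (vertical, mean of 2 arrays); coloured points are the genes with the largest opposed or shared effects and triangles are 4 p53 targets. The cloud is round (r = 0.09), and Ereg and Osr2 lie farthest into the opposed quadrant at the lower right. The 4 p53 targets drawn lie low and near the vertical axis. They are among those with the lowest organoid values and do not stand for all targets tested.

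No gene passed the test of the difference: limma with Benjamini-Hochberg adjustment over all 11310 genes called 0 (0%) at an adjusted p under 0.05, and the smallest adjusted p was 0.290. At an unadjusted p under 0.05 there were 790 genes, 274 with a difference above 0 and 516 below, where chance gives 566. The mean of both effects, a test of shared change, also called 0 genes (0%), with a smallest adjusted p of 0.311 and 1042 genes at an unadjusted p under 0.05. Genes are therefore described below by their values in the 4 units, and none of them is a call. Where limma was instead run on the 6 arrays as if independent, with a dye term, 44 genes were called higher and 74 lower in tissue than in organoids, but the 2 arrays of a mouse pair hold the same RNA and are not replicates.

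By sign alone, 498 genes (4.4%) lay above WT in both tissue pairs and below it in both organoid arrays, and 1021 (9.03%) lay the other way round. A further 957 (8.46%) were above WT in all 4 units and 1152 (10.2%) below WT in all 4, while the remaining 7682 had no single direction in tissue, in organoids or in both. The median ratio over all genes was -0.03 and -0.01 in the tissue pairs and -0.03 in organoid array 1, but 0.13 in organoid array 2. With each unit centred on its own median, a setting added after the data were seen, 781 (6.91%) were opposed with tissue higher and 772 (6.83%) with tissue lower; such centring itself balances the signs, so the split between these directions is not read as a result. Opposed or shared effects over 0.5 on the log2 scale in both experiments were less frequent: 27 genes were opposed and higher in tissue, 52 opposed and lower, 57 shared and higher, and 51 shared and lower.

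Across genes, which are not independent replicates, the tissue and organoid effects correlated with r = 0.09. The tissue pairs correlated with each other with r = 0.57 and the organoid arrays with r = 0.10. Between a single tissue pair and a single organoid array r ran from -0.03 to 0.19, a range that holds the value between the organoid arrays. Organoid array 2 had the widest ratios, with an SD of 0.52 across genes against 0.35 in array 1 and 0.37 and 0.23 in the tissue pairs.

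Trp53 itself, the targeted gene, had a log2 KO over WT of -0.46 and 0.04 in the tissue pairs and -1.02 and -0.66 in the organoid arrays. Only the organoid arrays were both below WT. Its probe was not well above background in KO organoids. The mean level there was 1.79-fold lower than in WT, a measured ratio from dim channels and not a bound. The probe lies on mm9 chromosome 11 from 69403134 to 69403193, and whether it lies within the deleted exons was not checked. The difference of 0.63 (SE 0.26) had a limma adjusted p of 0.741.

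The p53 target genes with the lowest organoid values lay near or above WT in tissue. Of 56 targets tested, 30 (53.6%) were below WT in both organoid arrays, against 20.4% of all genes, and 8 were below -1 in both. All 8 had tissue effects between -0.05 and 0.58. By direction, 13 of the 56 were opposed and higher in tissue, 2 opposed and lower, 10 shared and lower, and 0 shared and higher. The shares of all genes in these directions were 4.4%, 9.03%, 10.2% and 8.46%. None of the 56 passed limma's test in either direction.

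Among targets of arrest and feedback, 8 of 21 tested (38.1%) were opposed with tissue higher, against 4.4% of all genes, and the median difference was 0.33 against -0.08 for all genes. Ccng1, which encodes cyclin G1, a binding partner of the phosphatase that controls Mdm2, had ratios of 0.10 and 0.45 in the tissue pairs and -2.05 and -2.14 in the organoid arrays. Both organoid values lay far below both tissue values. The difference was 2.37 (SE 0.19, limma adjusted p = 0.290). Zmat3, an RNA-binding protein, had 0.19 and 0.03 against -2.03 and -1.10. Psrc1, a spindle protein, had 0.25 and 0.14 against -2.64 and -1.05. Zfp365 had 0.84 and 0.32 against -2.70 and -1.28, the widest difference of the list at 2.57. In Zfp365, 1 of the KO organoid channels was not well above background. Sesn1 (1.01 and 0.25 against -1.25 and -0.26), a stress-induced inhibitor of growth signalling, and its relative Sesn2 (0.54 and 0.17 against -0.21 and -0.43) were opposed as well. Mdm2 had 0.03 and 0.01 against -0.33 and -0.40, with a tissue probe at a log2 intensity of 15.97, a range where tissue ratios were small for most genes (below). Trp53inp1 was the single member below WT in all 4 units, at -0.33 and -0.13 in tissue and -0.97 and -1.02 in organoids. Cdkn1a, the cell cycle inhibitor p21, took no single direction: it had -0.12 and -0.16 in tissue, and 0.14 and -0.99 in organoids.

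Among targets of stress response and repair, 3 of 19 tested (15.8%, against 4.4% of all genes) were opposed with tissue higher and 4 (21.1%, against 10.2%) were shared and lower. Mgmt, which removes alkyl groups from DNA, had 0.86 and 0.15 in tissue and -2.09 and -2.08 in organoids. Its organoid arrays were nearly equal while its tissue pairs were both above WT, with a difference of 2.59 (SE 0.28, limma adjusted p = 0.319). Ephx1, a microsomal epoxide hydrolase, had 0.11 and 0.07 against -1.78 and -1.73, and Ces2e, a carboxylesterase, had -0.01 and -0.09 against -1.96 and -1.64. The probes of both were bright in tissue, at log2 intensities of 15.6 and 16.9. Ercc5, a nuclease of excision repair, had 0.21 and -0.02 against -0.39 and -0.61.

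Death targets were mixed, with 5 of 16 (31.2%) shared and lower, against 10.2% of all genes. Opposed with tissue higher were 2 (12.5%, against 4.4%), and opposed with tissue lower were 2 (12.5%), near the 9.03% of all genes. Phlda3, an inhibitor of AKT, had 0.42 and 0.04 in tissue against -2.21 and -2.32 in organoids, a difference of 2.49 (SE 0.20, limma adjusted p = 0.290). Its tissue probe had a log2 intensity of 16.6, and on 1 of the 4 tissue arrays its ratio was below 0. Bax, which opens the mitochondrial membrane, was below WT in all 4 units, at -0.35 and -0.02 in tissue and -0.87 and -0.65 in organoids. So was Bbc3, which encodes the death activator PUMA, at -0.47 and -0.17 against -0.47 and -0.42; here tissue and organoid values overlapped. Tnfrsf10b, a death receptor, was opposed with tissue lower, at -0.20 and -0.28 against 0.13 and 0.16.

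The 250 bases before the start of each gene in RefSeq's table (build GRCm38.p6) were searched for the p53 response element, a pair of decamers up to 13 bases apart with at most 1 mismatch in all; the element is its own reverse complement, so both strands are covered. Of 56 targets, 47 had a promoter there and 4 held the pair, Ccng1, Bax, Cdkn1a and Polk, as did 0.898% of all 32851 promoters. The first 3 are shown, with both decamers in capitals, because they took 3 different directions. Ccng1 was opposed, Bax shared and lower, and Cdkn1a had no single direction.
Ccng1: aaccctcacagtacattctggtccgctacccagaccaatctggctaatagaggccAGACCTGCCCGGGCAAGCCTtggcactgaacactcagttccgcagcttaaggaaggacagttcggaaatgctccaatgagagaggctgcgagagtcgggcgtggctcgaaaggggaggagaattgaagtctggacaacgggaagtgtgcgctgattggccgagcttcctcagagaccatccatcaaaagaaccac
Bax: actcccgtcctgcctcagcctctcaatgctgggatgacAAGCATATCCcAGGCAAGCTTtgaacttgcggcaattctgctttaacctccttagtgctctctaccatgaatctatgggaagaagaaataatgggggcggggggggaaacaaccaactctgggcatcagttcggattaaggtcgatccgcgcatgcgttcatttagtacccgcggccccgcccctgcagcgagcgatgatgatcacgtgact
Cdkn1a: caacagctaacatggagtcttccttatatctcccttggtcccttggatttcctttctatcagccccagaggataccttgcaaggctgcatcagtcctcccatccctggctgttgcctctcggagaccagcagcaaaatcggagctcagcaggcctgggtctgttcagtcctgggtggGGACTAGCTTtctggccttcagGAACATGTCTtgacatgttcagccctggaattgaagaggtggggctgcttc
The Ccng1 stretch is chr11:40755287-40755536 on the minus strand, with the pair 195 to 176 bases before the start and no bases between its decamers. The Bax stretch is chr7:45466899-45467148 on the minus strand, with the pair 212 to 192 bases before the start. The Cdkn1a stretch is chr17:29090729-29090978 on the plus strand, upstream of the first of 2 listed starts, with the pair 73 to 42 bases before it, 12 bases between its decamers and 0 mismatches. Its second decamer also forms a pair with the 10 bases that directly follow it, within the 1 mismatch allowed. Those bases are in small letters because only the pair with the fewest mismatches was marked. A match of letters is a description and shows no binding.

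**Figure D2:**
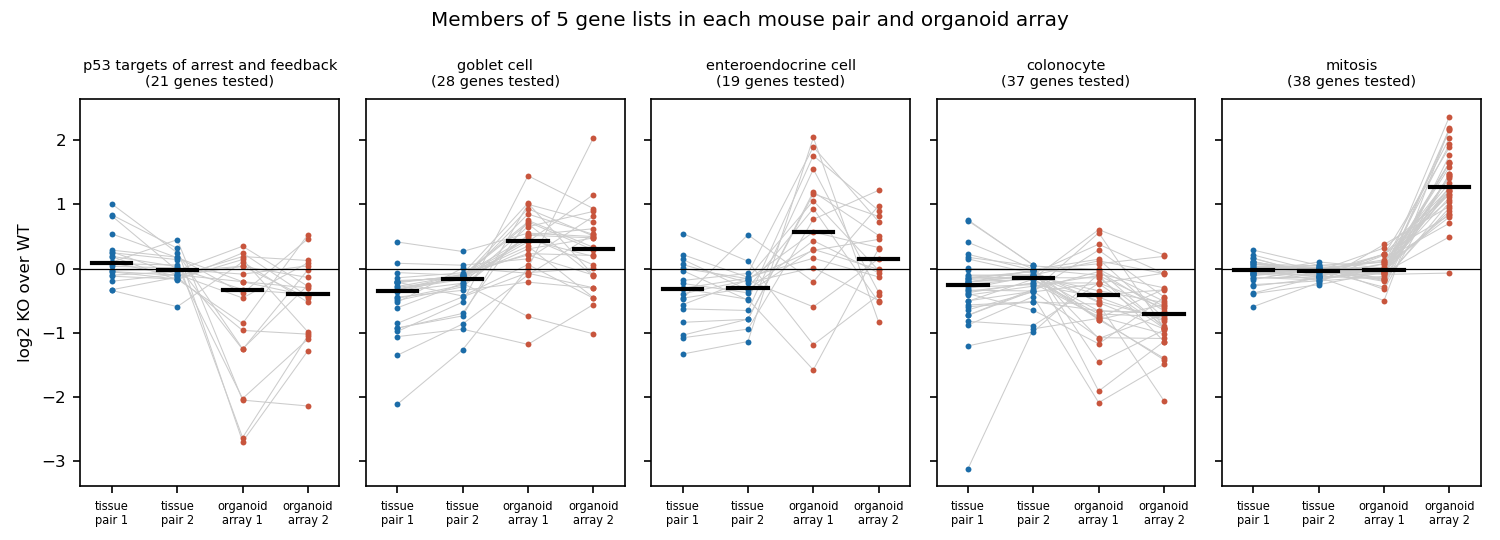
Each point is a gene of 5 lists with its log2 KO over WT (vertical) in tissue pairs 1 and 2 (blue) and organoid arrays 1 and 2 (red); grey lines join the values of a gene and black bars are medians. Goblet and enteroendocrine genes lie below 0 in tissue and mostly above it in organoids, colonocyte medians lie below 0 in all 4 units, as do 25 of the 37 genes, and mitosis genes stand apart in organoid array 2 alone (median 1.27, against -0.02 in array 1).

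Goblet cell genes lay below WT in tissue and mostly above WT in organoids. Of 28 tested, 25 (89.3%) were below WT in both tissue pairs, against 38.7% of all genes. Above WT in both organoid arrays were 17 (60.7%), against 26.8%. Opposed with tissue lower were 15 (53.6%), against 9.03% of all genes. None was opposed the other way, against 4.4% of all genes. Near the shares of all genes, 2 (7.14%, against 8.46%) were shared and higher and 3 (10.7%, against 10.2%) shared and lower. Medians were -0.34 and -0.16 in the tissue pairs and 0.43 and 0.31 in the organoid arrays, and the median difference was -0.62 against -0.08 for all genes.

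The factors that direct goblet cell fate were among them. Atoh1, which commits progenitors to secretory fates, had -2.12 and -1.27 in tissue and 0.01 and 2.03 in organoids. It was low in both pairs, but organoid array 1 showed no difference from WT, and its difference of -2.71 (SE 0.76) had a limma adjusted p of 0.591. Spdef, which matures goblet cells downstream of Atoh1, had -0.93 and -0.74 against 1.00 and 0.73. Its units lay close together within each experiment, and the difference was -1.70 (SE 0.19, limma adjusted p = 0.319). Creb3l1, a factor of secretory capacity, had -0.61 and -0.23 against 0.65 and 0.89, and Creb3l4 had -0.32 and -0.15 against 0.41 and 1.15. Among effectors, Ern2, the stress sensor of mucus-making cells, had -0.98 and -0.52 against 1.45 and 0.94. Rep15, a Rab15 effector, had -0.93 and -0.70 against 0.75 and 0.33. Agr2, which folds mucins, had -0.19 and -0.15 against 0.93 and 0.51, and Spink4, a peptidase inhibitor, had -0.33 and -0.17 against 0.85 and 0.53.

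The mucus proteins themselves were less clear. Muc2, the main colonic mucin, had -0.15 and -0.07 in tissue and 0.21 and -0.10 in organoids, and Zg16, a mucus lectin, had -0.21 and -0.12 against 0.35 and -0.45. Clca1, a mucus protease, had -0.33 and -0.09 against 1.02 and -0.10. All 3 had tissue probes at log2 intensities above 17. Fcgbp, a mucin-like binding protein with a dimmer tissue probe (10.7), had -1.35 and -0.87 in tissue and -0.10 and 0.54 in organoids. Gcnt3, which branches mucin glycans and is also made by colonocytes, was below WT in every unit, at -1.06 and -0.95 in tissue and -1.18 and -0.56 in organoids. Its mean over both experiments was -0.94 (SE 0.13, limma adjusted p = 0.328).

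Enteroendocrine genes followed the goblet pattern in part. Of 19 tested, 6 (31.6%) were opposed with tissue lower, against 9.03% of all genes, 1 (5.26%) was opposed with tissue higher, against 4.4%, and 12 had no single direction. In organoid array 1, 78.9% of the list lay above WT, against 44.3% of all genes, but in array 2 52.6% did, against 62.1%. Medians were -0.31 and -0.30 in tissue, and 0.57 and 0.15 in organoids. Neurod1, a factor of endocrine differentiation, had -1.08 and -0.95 in tissue and 0.77 and 1.22 in organoids. It was opposed on all 6 arrays, with a difference of -2.01 (SE 0.22, limma adjusted p = 0.319), and in 3 of 4 KO tissue channels it was not well above background. Insm1, a factor that maintains endocrine cells, had -1.04 and -0.79 against 1.16 and 0.81. The granule proteins Chga (-0.84 and -0.79 against 1.20 and 0.51), Chgb (-0.19 and -0.08 against 1.90 and 0.73) and Scg2 (-0.03 and -0.49 against 1.76 and 0.90) went the same way. So did Tph1, which makes serotonin, at -0.56 and -0.18 against 0.57 and 0.33. The peptide hormones split between the organoid arrays. Gcg, the precursor of GLP-1, had -1.33 and -1.14 in tissue but 2.04 and -0.84 in organoids, and Insl5 had -0.63 and -0.65 against 1.55 and -0.37. Pyy had -0.31 and -0.15 against 1.06 and -0.03. All 3 were higher than WT in organoid array 1 alone. Cpe, which trims prohormones, was opposed with tissue higher, at 0.55 and 0.11 against -1.19 and -0.41.

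Markers of epithelium as a whole and of some other cell types also leaned away from WT in tissue. Of all 11310 genes tested in both experiments, 38.7% were below WT in both tissue pairs and 27.5% above. Of 23 general epithelium genes measured in tissue, 18 were below WT in both pairs and 1 above, with medians of -0.16 and -0.09, and their summed log2 signal was 20.93 to 21.07 in KO and 21.05 to 21.16 in WT mice. Skeletal muscle genes were above WT in both pairs for 21 of 22 (medians 0.68 and 0.43), fibroblast genes for 13 of 17, smooth muscle genes for 12 of 14 and squamous epithelium genes for 12 of 15, with 0 below in both pairs for each. Their summed log2 signals in KO and WT mice overlapped for skeletal muscle (20.05 to 20.58 against 19.69 to 20.33) and smooth muscle (19.77 to 20.06 against 19.69 to 19.82), not for fibroblasts (19.20 to 19.29 against 19.09 to 19.10), and met at 20.76 for squamous epithelium (20.76 to 20.84 against 20.43 to 20.76). Other cell types were less uniform. Adipocyte genes were above WT in both pairs for 7 of 9 and below for 1 (medians 0.22 and 0.80). Immune genes were above for 6 of 18 and below for 2 (medians -0.13 and 0.43). Neuron and glia genes were above for 5 of 13 and below for 2 (medians 0.28 and -0.02). Endothelial genes were above for 4 of 9 and below for 0 (medians -0.04 and 0.56). The part of these cell types in the tissue ratios was not tested. In organoids, 3 of 18 fibroblast, 4 of 14 endothelial, 8 of 24 skeletal muscle and 9 of 27 immune genes were well above background. So were 5 of 12 adipocyte, 8 of 19 neuron and glia, 7 of 15 smooth muscle and 12 of 20 squamous epithelium genes. Of general epithelium genes 24 of 25 were, and their medians there were 0.04 and -0.14.

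Colonocyte genes were the largest group shared by both experiments. Of 37 tested, 30 (81.1%) were below WT in both tissue pairs, against 38.7% of all genes, and 30 (81.1%) in both organoid arrays, against 20.4%. Below WT in all 4 units were 25 (67.6%), against 10.2% of all genes, and 0 were above WT in all 4, against 8.46%. Medians were -0.25 and -0.15 in tissue and -0.41 and -0.71 in organoids. Markers of the absorptive cell thus mostly lay on the same side in both experiments, whereas goblet genes did not. General epithelium genes were also shared and lower for 7 of 22 tested (31.8%), against 10.2% of all genes, with Vil1 and Krt20 in both lists.

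Among ion transporters, Slc9a3, the sodium-proton exchanger NHE3, had -3.12 and -0.94 in tissue and -0.78 and -1.42 in organoids. Tissue and organoid values overlapped, with a mean of both effects of -1.57 (SE 0.40, limma adjusted p = 0.401), and in 1 of 4 KO tissue channels it was not well above background. Slc26a3, the chloride-bicarbonate exchanger, had -0.60 and -0.52 against -0.56 and -2.06. Its lowest value came from organoid array 2 alone. Of the carbonic anhydrases, Car4 had -0.50 and -0.36 against -1.08 and -1.09, and Car1 had -0.21 and -0.12 against -0.66 and -0.70. Aqp8, a water channel, had -0.16 and -0.04 against -0.53 and -0.94. Among secreted and membrane proteins, Guca2a, which encodes guanylin, had -0.36 and -0.23 against -0.75 and -1.02. Muc3, a membrane mucin, had -0.14 and -0.05 against -1.09 and -0.71; both its tissue values came from a probe at a log2 intensity of 17.7. Fabp2, a fatty acid carrier, had -0.88 and -0.44 against -2.09 and -1.49.

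Structural members of the colonocyte list had smaller values. Vil1, which bundles microvillar actin, had -0.12 and -0.10 in tissue and -0.41 and -0.33 in organoids, and the microvillar motor Myo1a had -0.31 and -0.12 against -0.51 and -0.79. Cdhr5, a microvillar cadherin, had -0.41 and -0.28 against -0.11 and -0.59. Cdh17, a cadherin of gut epithelium, was the lower in tissue, at -1.21 and -0.99 against -0.09 and -0.30, with 1 of 4 KO tissue channels not well above background. Cdx2, the intestinal identity factor and a member of the general epithelium list, showed the same tilt, at -1.20 and -0.96 against -0.03 and -0.18, with a difference of -0.98 (SE 0.18, limma adjusted p = 0.468). An exception to the shared direction was Tmigd1, an adhesion protein, at 0.75 and 0.06 against -1.91 and -1.14. It was opposed with tissue higher, and nearly all of its tissue effect came from pair 1.

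Drug-metabolising enzymes of the gut epithelium were likewise shared and lower for 13 of 31 tested (41.9%), against 10.2% of all genes. Opposed and higher in tissue were 3 (9.68%, against 4.4%). A further 1 (3.23%, against 9.03%) was opposed and lower, and 1 (3.23%, against 8.46%) shared and higher. Cyp2c66 had -1.14 and -0.63 in tissue and -1.26 and -0.55 in organoids, Cyp2c65 had -0.97 and -0.61 against -1.73 and -0.48, and Cyp2c69 had -0.95 and -0.49 against -0.58 and -1.01. The Cyp2c genes are near-identical paralogs, so their probes may share transcripts and are not separate evidence. Ces2c, a carboxylesterase, had -0.86 and -0.35 against -1.14 and -1.55, and Abcb1a, an efflux pump, had -0.74 and -0.39 against -0.45 and -0.96. Aldh1a1, which makes retinoic acid, was opposed, at 0.26 and 0.12 in tissue and -1.44 and -1.02 in organoids. Oxidative phosphorylation genes were shared and lower for 10 of 32 (31.2%, against 10.2% of all genes), with small sizes: medians were -0.03 and -0.01 in tissue and -0.06 and -0.20 in organoids.

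**Figure D3:**
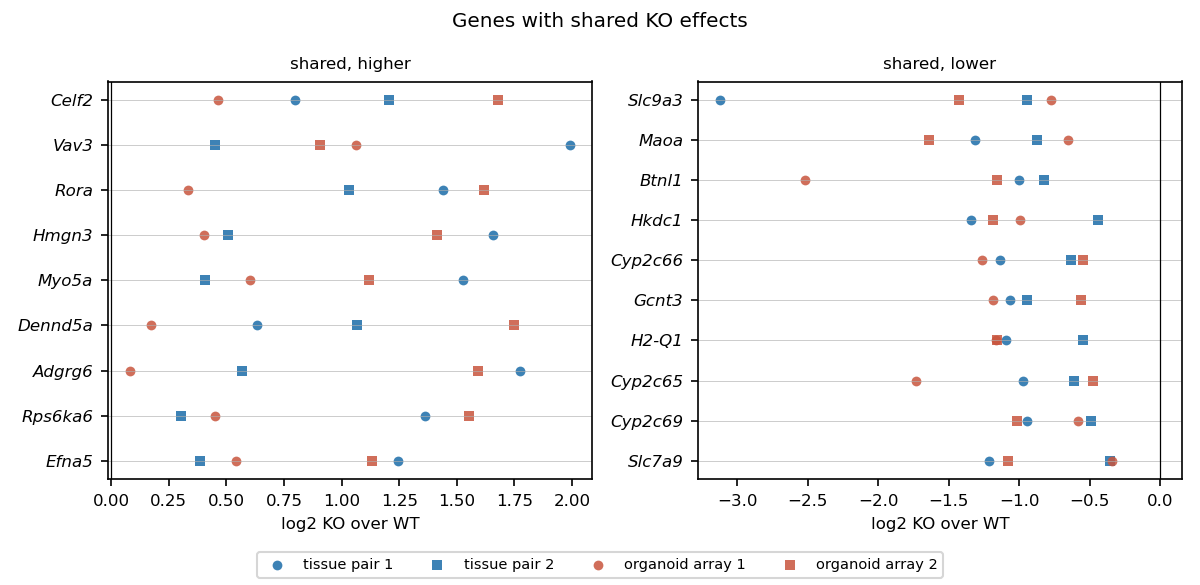
Log2 KO over WT (horizontal) of 19 genes among those with the largest shared effects, 9 above and 10 below WT, in 2 mouse pairs of tissue (blue) and 2 organoid arrays (red). Tissue and organoid points interleave for most genes, for example for Slc9a3 and Celf2.

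The other genes with the largest shared effects below WT were Maoa, which degrades monoamines (-1.32 and -0.87 in tissue, -0.65 and -1.64 in organoids), and Btnl1, an epithelial molecule that gut gamma-delta T cells depend on (-1.003 and -0.82, -2.52 and -1.16). Hkdc1, a hexokinase, had -1.34 and -0.44 in tissue and -0.996 and -1.19 in organoids, and Slc7a9, an amino acid transporter, had -1.21 and -0.36 against -0.34 and -1.08. H2-Q1, a class I major histocompatibility gene with close paralogs, had -1.10 and -0.55 against -1.17 and -1.16. Tissue and organoid values overlapped for Maoa, Hkdc1 and Slc7a9, while for Btnl1 and H2-Q1 both organoid values lay below both tissue values. Limma adjusted p-values of their mean effect ran from 0.323 to 0.431.

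On the higher side, Vav3, a guanine nucleotide exchange factor, had 1.99 and 0.45 in tissue and 1.06 and 0.91 in organoids. Rora, a nuclear receptor, had 1.44 and 1.03 against 0.33 and 1.62, and Celf2, a splicing regulator, had 0.80 and 1.21 against 0.46 and 1.68. Hmgn3, a nucleosome-binding protein, had 1.66 and 0.51 against 0.40 and 1.41. In all 4 genes tissue and organoid values interleaved. Myo5a, Dennd5a, Adgrg6, Rps6ka6 and Efna5 were the others described here, with tissue effects from 0.82 to 1.17 and organoid effects from 0.84 to 1.00. Their limma adjusted p-values of the mean ran from 0.381 to 0.502. In Dennd5a and Adgrg6 organoid array 1 contributed little, at 0.17 and 0.08. In Hkdc1 2 of 4 KO tissue channels, and in Hmgn3 1 of 2 WT organoid channels, were not well above background. For Celf2 and Myo5a a second probe of the gene did not share the direction of the difference. In the probes used that difference was near 0 (-0.07 and 0.11), so its sign does not bear on the shared effect. Under other settings of the processing the mean of both effects ran from 0.24 to 1.34 for Celf2 and from 0.63 to 1.19 for Myo5a.

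**Figure D4:**
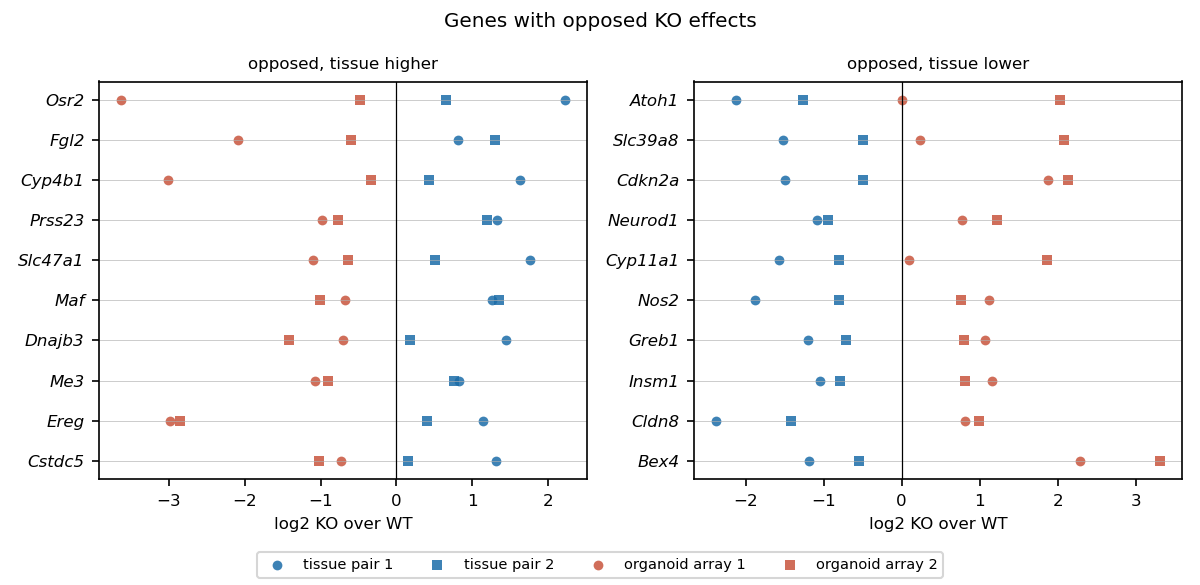
Log2 KO over WT (horizontal) of the 20 genes with the largest opposed effects, 10 with tissue higher (left) and 10 with tissue lower (right), in 2 mouse pairs of tissue (blue) and 2 organoid arrays (red). Blue and red points lie on opposite sides of 0 in every row; Ereg and Cdkn2a keep the organoid arrays close together, whereas Osr2 and Atoh1 do not.

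Of genes above WT in tissue and below it in organoids, Ereg had the largest difference. Ereg encodes epiregulin, a ligand of the EGF receptor made in regenerating epithelium and in stroma. It had 1.14 and 0.40 in tissue and -2.98 and -2.85 in organoids. The organoid arrays were nearly equal, and the difference was 3.68 (12.8-fold, SE 0.30, limma adjusted p = 0.290). Maf, a transcription factor, had 1.26 and 1.35 against -0.68 and -1.01, and both of its probes took this direction. Prss23, a serine protease, had 1.33 and 1.19 against -0.98 and -0.77. Me3, a mitochondrial malic enzyme, had 0.83 and 0.76 against -1.07 and -0.90. In Maf, Prss23 and Me3 the units of each experiment lay close together, and each had a limma adjusted p of 0.290.

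In other genes of this group the units of an experiment lay further apart. Osr2, a zinc finger factor of mesenchyme, had 2.22 and 0.65 in tissue but -3.62 and -0.48 in organoids. Cyp4b1, a cytochrome P450, had 1.62 and 0.43 against -3.01 and -0.33. Fgl2, a fibrinogen-like protein, had 0.81 and 1.30 against -2.08 and -0.60, and Slc47a1, a cation exporter, had 1.76 and 0.51 against -1.11 and -0.63. For the last of these and for Fgl2, 1 of 2 KO organoid channels was not well above background. Dnajb3 (1.44 and 0.18 against -0.70 and -1.42) and Cstdc5 (1.31 and 0.15 against -0.73 and -1.02) had tissue pair 2 near WT.

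Of genes below WT in tissue and above it in organoids, Bex4 had the largest difference, -3.66 (SE 0.44, limma adjusted p = 0.376), with -1.18 and -0.55 in tissue and 2.28 and 3.31 in organoids. Its relative Bex1 had -0.19 and -0.12 against 2.14 and 2.34 and the smallest unadjusted p of all genes (7.71e-05, limma adjusted p = 0.290). The probes named Bex1 and Bex4 lie next to each other on mm9 chromosome X, so they may read transcripts of 1 gene and are not separate evidence. Cdkn2a, which encodes the p16INK4A inhibitor and the ARF protein that restrains Mdm2, had -1.50 and -0.49 in tissue and 1.87 and 2.13 in organoids, a difference of -2.999 (SE 0.385, limma adjusted p = 0.433). The probe does not tell these products apart here. Cldn8, a tight junction protein of the distal colon, had -2.38 and -1.41 against 0.82 and 0.99.

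Greb1, a hormone-responsive gene, had -1.20 and -0.71 in tissue and 1.07 and 0.80 in organoids. Zfp704, a zinc finger factor, had -0.92 and -0.55 against 1.43 and 1.41, and Anxa13, an annexin of gut epithelium, had -0.66 and -0.46 against 1.09 and 1.17. Their organoid arrays agreed closely, and their limma adjusted p-values ran from 0.290 to 0.433. In Slc39a8, a zinc and manganese importer (-1.53 and -0.49 against 0.23 and 2.08), and Cyp11a1, which starts steroid synthesis (-1.58 and -0.80 against 0.09 and 1.87), organoid array 1 was near WT.

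Host defence genes of the epithelium took all 4 directions. Of 29 tested, 8 (27.6%) were opposed with tissue lower, against 9.03% of all genes, and 5 (17.2%) were shared and higher, against 8.46%. The 1 opposed with tissue higher (3.45%) and the 4 shared and lower (13.8%) were near the shares of all genes, 4.4% and 10.2%. The count opposed with tissue lower depended in part on dim channels. Of 25 members well above background in all channels of KO and of WT in both experiments, 4 took that direction. Among all genes so restricted, 909 of 10461 did. Nos2, the inducible nitric oxide synthase, had -1.88 and -0.80 in tissue and 1.12 and 0.76 in organoids. The oxidase genes Nox1 (-0.51 and -0.56 against 0.58 and 0.45), Duox2 (-0.35 and -0.33 against 0.12 and 0.35) and Duoxa2 (-0.37 and -0.19 against 0.32 and 0.03) had the same direction. Reg3g, an antibacterial lectin, had -0.70 and -0.74 against 0.76 and 1.36. Its probe was not well above background in WT organoids, so the mean organoid ratio of 2.08-fold was read from dim channels. In tissue, 2 of its 4 KO channels were not well above background, nor was 1 of 4 for Nox1 and Duox2. Serum amyloid genes were shared and lower: Saa1 had -0.20 and -0.17 against -0.71 and -0.75, and Saa2, a near-identical paralog, -0.31 and -0.11 against -0.89 and -0.72. The neutrophil attractants were shared and higher. Cxcl1 had 0.13 and 0.90 in tissue and 1.87 and 1.00 in organoids, and Cxcl5 had 0.60 and 0.23 against 0.11 and 3.67, the last from organoid array 2 alone. Defb1, a defensin, was opposed with tissue higher, with nearly all of its tissue effect in pair 1 (1.26 and 0.01 against -0.54 and -0.12).

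Interferon-stimulated genes were below WT in both tissue pairs for 18 of 28 tested (64.3%, against 38.7% of all genes) and above WT in both organoid arrays for 11 (39.3%, against 26.8%). Opposed with tissue lower were 5 (17.9%), against 9.03% of all genes. Ifit1, an RNA-binding antiviral protein, had -1.65 and -1.12 in tissue and 0.01 and 0.40 in organoids. Isg15, a ubiquitin-like modifier, had -0.71 and -0.41 against 0.28 and 0.37, and Ifi47, a GTPase, had -0.48 and -0.09 against 0.69 and 0.57. Ifi27l2a went the other way from most of the list in tissue and was above WT in all 4 units, at 0.67 and 0.76 against 0.44 and 0.98.

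Proliferation genes showed no direction that the 2 organoid arrays shared. Of 38 mitosis genes, 37 were above WT in organoid array 2 (median 1.27) and 14 in array 1 (median -0.02), against 62.1% and 44.3% of all genes. Tissue medians were -0.02 and -0.04, and 5 members (13.2%) were opposed with tissue lower, against 9.03% of all genes. Mki67, a marker of cycling cells, had 0.00 and -0.03 in tissue and -0.18 and 1.47 in organoids. Foxm1, a driver of mitotic genes, had 0.11 and -0.12 against -0.16 and 2.16. The 38 genes of DNA replication and the G1/S step behaved alike, with medians of -0.13 and -0.01 in tissue, -0.13 in organoid array 1 and 1.12 in array 2, where all 38 were above WT. Without organoid array 2 the median difference was 0.08 for G1/S genes against -0.62 with it, and -0.04 against -0.71 for mitosis genes, so these differences rest on that array.

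Crypt stem cell genes and Wnt targets leaned on the same array. Medians of 23 stem cell genes were -0.24 and -0.03 in tissue, 0.04 in organoid array 1 and 0.79 in array 2, and those of 18 Wnt targets were -0.40, 0.04, -0.05 and 0.92. Smoc2, a matrix protein of the stem cell zone, stood out with both organoid arrays far above WT, at 1.90 and 2.66, and tissue pairs at -0.26 and -0.03. Its difference was -2.42 (SE 0.31). Lgr5, the R-spondin receptor that marks stem cells, had -1.04 and 0.18 in tissue and 0.66 and 2.34 in organoids, and Axin2, a negative feedback gene of Wnt signalling, had -0.46 and 0.11 against -0.08 and 0.99. Sox9, a factor of progenitors, had -1.05 and -0.82 against -0.41 and 1.29. In tissue, Lgr5 and Axin2 lay below WT in pair 1 only. Ephb2 (-0.20 and -0.03 against 0.34 and 0.35) and Lrig1 (-0.17 and -0.20 against 0.31 and 0.94) were opposed with tissue lower.

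Genes of fetal-like and regenerating epithelium had no common direction beyond Ereg. Of 35 tested, 4 (11.4%) were opposed with tissue higher and 4 (11.4%) with tissue lower, against 4.4% and 9.03% of all genes. A further 5 (14.3%) were shared and higher and 1 (2.86%) shared and lower, against 8.46% and 10.2%. The other 21 had no single direction, and the median difference was -0.01. Ly6a, which encodes the surface marker Sca-1, had -0.17 and -0.02 in tissue and 0.16 and 0.19 in organoids, from a tissue probe at a log2 intensity of 16.8. Clu, a marker of revival stem cells, had -0.01 and 0.11 against -0.83 and 0.45. Il33, an alarmin, was above WT in all units, at 0.97 and 0.17 against 0.46 and 1.65, and so was Anxa1, at 0.32 and 0.02 against 0.45 and 0.65, though 1 of its 3 probes had a difference of the other sign. Vsig1, a junction protein, was opposed with tissue lower, at -0.72 and -0.33 against 0.47 and 0.74.

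YAP targets, genes of the Hippo pathway's effector, were shared and higher for 6 of 23 (26.1%), against 8.46% of all genes. Arhgef17 had 0.65 and 0.24 in tissue and 0.13 and 1.35 in organoids, Axl, a receptor kinase, had 0.41 and 0.42 against 0.96 and 0.29, and Igfbp3 had 0.52 and 0.08 against 0.13 and 1.09. Lats2, a kinase that restrains YAP, was opposed with tissue higher, at 0.58 and 0.60 against -0.50 and -0.10. Of Hox genes, 4 of 15 (26.7%) were opposed with tissue lower, against 9.03% of all genes, among them Hoxa13 (-0.50 and -0.55 against 0.17 and 0.27) and Hoxb13 (-0.10 and -0.03 against 0.79 and 0.45). For Hoxa13 1 of 4 KO tissue channels was not well above background. Of the 12 Hox genes well above background in all channels of KO and of WT in both experiments, 2 were opposed with tissue lower. Their median difference was -0.02, against -0.41 for all 15, so the lean of the list rests on genes with dim channels.

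**Figure D5:**
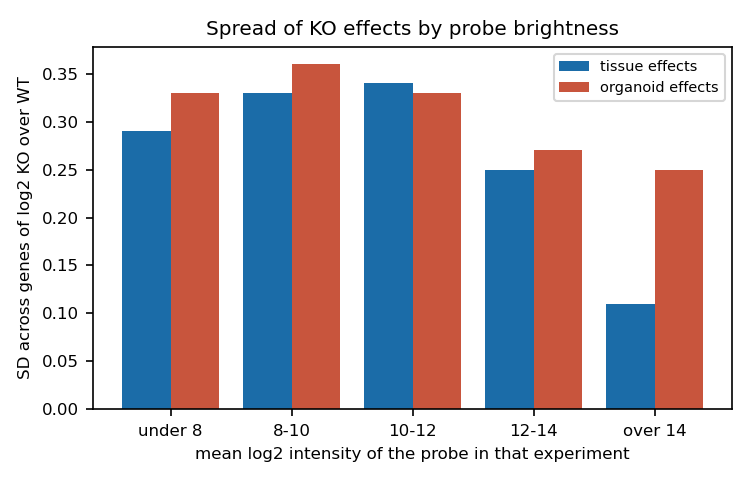
SD across genes of the tissue and organoid log2 KO over WT (vertical, starting at 0) by the mean log2 intensity of the probe in that experiment (horizontal). Tissue effects narrow to an SD of 0.11 above an intensity of 14, where organoid effects keep 0.25.

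The spread of effects across genes differed with the brightness of the probe, and why it did so was not tested. Tissue effects had an SD of 0.33 across 2267 genes with log2 intensities from 8 to 10 and 0.11 across 3512 genes above 14, whereas organoid effects had 0.36 and 0.25, with 1141 genes above 14. For genes bright in tissue the difference thus mostly follows the organoid ratio. Slpi, a protease inhibitor, was the clearest case, with 0.08 and -0.02 in tissue at a log2 intensity of 17.3 and 1.81 and 1.67 in organoids. Lyz1, lysozyme of Paneth cells, had -0.03 and 0.08 against 1.79 and 1.89. Aldh1a3, which makes retinoic acid, had 0.40 and 0.17 against 1.89 and 2.34, with a log2 tissue intensity of 15.0; its second probe had a difference of -0.23 in place of -1.83. These differences of -1.71, -1.82 and -1.83 (limma adjusted p from 0.290 to 0.402) are differences in size without an opposed direction. Mettl21c, a methyltransferase of muscle, was the reverse case, with 1.60 and 1.59 in tissue and -0.06 and 0.11 in organoids, where 1 of 2 KO channels was not well above background.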

How the data were processed

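RNA of colon tissue and colon organoids was hybridised to 2-colour Agilent arrays. Per the file headers, the authors extracted spot intensity with Agilent Feature Extraction, deposited without normalization, together with the scanner software's log10 ratio of Cy5 over Cy3; probe coordinates are on mm9. A value table from the authors, deposited as log2 ratios, was used as an alternative. Limma is named in the submitters' processing notes. Set against the scanner ratios, these values ran as Cy5 over Cy3, with centring unknown (column medians of the 6 arrays from -0.000351 to 0.0173).

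Ratios were computed here from mean and background intensities in R 4.3.3 with limma 3.58.1: normexp background correction (offset 50) and loess on each array, in which control spots (3671 of 62976) and outlier spots had no weight. Outlier spots, 1.27% to 5.12% of an array, were set to missing. Spots of a probe were averaged and each gene was read from its brightest passing probe; 12051 of 56605 probes had no name in RefSeq's table. Ratios were turned to KO over WT and the dye-swapped arrays of a mouse pair averaged. The organoid arrays are not dye swaps of the same RNA, so a dye effect does not cancel within either of them. The 4 units entered lmFit and eBayes with Benjamini-Hochberg adjustment at 0.05, which was checked on simulated data. In 1 tissue label the Cy3 replicate number differs from the title, and the title was used. Low or bright probes, normalization, dye, the number of arrays and left-out units were varied. The small number of arrays limits the precision.

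Members of the lists and the genes named were chosen with earlier results of these data known. Named are the 10 genes with the largest smaller effect in each opposed and shared direction, the 10 smallest p of the difference per sign, up to 3 members per list, and 24 fixed genes; other list members were chosen after their values were seen. Reg3b, one of the 24, was not tested, since it lost a spot or did not pass the filter. A few genes that these rules name are not reported here.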

Additional observations from a re-analysis of the deposited data

Results flagged for a closer look

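Among the genes named, 48 had a KO effect of one sign on every tissue array and of the other sign on both organoid arrays. Opposed direction was itself a rule for naming genes, so this count follows in part from the choice. Over all genes tested, 232 (2.05%) were opposed in this way with tissue higher and 491 (4.34%) with tissue lower. None of the 48 passed limma's test of the difference, whose smallest Benjamini-Hochberg adjusted p was 0.290. With tissue higher there were 20. The tissue minus organoid differences on the log2 scale were largest for Ereg (3.68), Osr2 (3.48), Cyp4b1 (2.70), Mgmt (2.59), Zfp365 (2.57), Fgl2 (2.39), Ccng1 (2.37), Maf (2.15), Prss23 (2.13), Slc47a1 (2.00) and Dnajb3 (1.87). They were smaller for Ephx1 (1.84), Me3 (1.78), Cstdc5 (1.60), Osbpl1a (1.47), Bmx (0.90), Lats2 (0.89), Ier5 (0.85), Mdm2 (0.39) and Actg2 (0.25).

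With tissue lower there were 28. The most negative log2 differences were those of Bex4 (-3.66), Cdkn2a (-3.0), Cldn8 (-2.80), Atoh1 (-2.71), Bex1 (-2.39), Nos2 (-2.28), Cyp11a1 (-2.17), Slc39a8 (-2.16), Zfp704 (-2.15) and Neurod1 (-2.01). Next came Ern2 (-1.94), Insm1 (-1.90), Greb1 (-1.89), Reg3g (-1.77), Spdef (-1.70), Anxa13 (-1.69), Chga (-1.67), Ifit1 (-1.59), Rep15 (-1.36) and Vsig1 (-1.13). The differences nearest to 0 were those of Kif11 (-1.08), Hoxa5 (-1.03), Myb (-0.96), Ifi47 (-0.91), Hoxa13 (-0.75), Spc24 (-0.71), E2f2 (-0.60) and Tm7sf2 (-0.48). Each experiment had 2 units, too few to look for a single unit that stands apart within its group.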

How the results depend on the processing

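Over 20 alternatives, 2 of them chosen after the data were seen, limma called 0 genes for the difference and 0 for the mean of both effects in 18. The 6 arrays taken as independent with a dye term gave 44 genes higher and 74 lower in tissue and 280 for the mean of both effects. With the pair as a random block these counts were 42, 69 and 273. Both settings count dye-swapped arrays of the same RNA. The counts for the mean do not ask that both experiments share a sign. By direction on all 6 arrays, 232 genes were opposed with tissue higher, 491 opposed with tissue lower, 485 shared and higher and 607 shared and lower. With no filter on background 1366 were opposed with tissue higher, 1809 shared and higher and 1748 shared and lower, of 23651 genes. Centring each unit gave 781 opposed with tissue higher. Leaving out 1 of the 4 units, which leaves a lone unit assumed to vary like the others, gave 811 to 1711 genes opposed with tissue higher, 1488 to 2390 opposed with tissue lower, 1394 to 2170 shared and higher, and 1465 to 2521 shared and lower, since fewer signs had to match.

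Among named genes whose difference was followed, it changed sign for 9; the 16 with a difference within 1 SE of 0 were not followed, and genes named for a shared effect were followed by their mean. With 1 unit left out it ran from -3.26 to 0.30 for Cxcl5, -0.73 to 0.04 for Idi1, -0.89 to 0.12 for Ier3, -1.97 to 0.12 for Krt14, -1.49 to 0.17 for Mki67 and -0.01 to 1.5 for Slc26a3, with the change of sign in each when organoid array 2 was left out. For Ccnd1 it ran from -0.02, without organoid array 1, to 0.53. Fbln1 had 0.82 in the authors' deposited log2 table, and the cause was not tested. Muc3 had -0.08 with bright probes left out, where another, dimmer probe was read, both for mean intensity and for intensity in each experiment. Of list medians, 556 values moved by less than the spread between units and 51 by more. That spread includes the gap between the organoid arrays, so this tally is no measure of stability. The mitosis and G1/S medians counted as unmoved although they went to -0.04 and 0.08 without organoid array 2. No paired analysis was possible because tissue mice and organoid cultures share no animals. Probes near background limit what a ratio can show. Tissue probes above a log2 intensity of 14 had a narrow spread of ratios, and the cause was not tested.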

Other observations

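Further lists are given by their counts, beside 4.4% of all genes opposed with tissue higher, 9.03% opposed with tissue lower, 8.46% shared and higher and 10.2% shared and lower. Of 19 BMP and TGF-beta genes 1 was opposed with tissue lower and 2 were shared and higher, and of 9 Notch genes 2 were shared and higher and 1 shared and lower. Of 21 immediate early genes, which respond quickly to growth factors and stress, 4 were shared and higher, 1 was opposed with tissue higher and 1 shared and lower. Of 23 cholesterol synthesis genes, 3 were opposed with tissue lower, 1 opposed with tissue higher, 1 shared and higher and 2 shared and lower. Of 5 tuft cell genes, 2 were shared and higher and 1 opposed with tissue higher, and of 4 MHC class II genes 1 was shared and lower. None of these genes passed limma's test of the difference.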
